A study of Saccharomyces cerevisiae with 90 samples.

Results

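The PIR genes of the budding yeast Saccharomyces cerevisiae encode cell wall proteins with internal repeats. RNA of 4 of them, PIR1 (YKL164C), HSP150 (YJL159W, also called PIR2), PIR3 (YKL163W) and CIS3 (YJL158C, also called PIR4), was followed over 90 arrays in 29 groups. The genes were chosen by name, through the annotation of the probe sets, and each was read by 1 probe set. They are 4 of the 5449 yeast genes that were tested. PIR1 and PIR3 are neighbours transcribed away from each other, and HSP150 and CIS3 are neighbours transcribed toward each other, with the PIR-like open reading frame PIR5 (YJL160C) next to HSP150.

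Pir proteins are secreted, carry O-linked mannose added by the Pmt mannosyltransferases, and are cut by the Golgi protease Kex2 before they reach the wall. They are bound directly to wall glucan by an alkali-sensitive link, unlike the larger class of wall mannoproteins that pass through a GPI anchor. Several PIR genes are known targets of the cell wall integrity pathway, in which the kinase Slt2 activates the factor Rlm1, and several are transcribed around the exit from mitosis. Hsp150 is known for its induction by heat and its release into the medium.

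The study asked how yeast responds to touch, by growing cells on a solid substrate or in liquid. Wild-type cells were collected after 6 h of growth in liquid or on agar with the nutrient compositions SD, SLAD and SG, and on gelatin with SD, with 3 arrays in each group. They were also collected at 0 h in SD liquid (3 arrays) and on SD agar (6 arrays). Altered strains were grown for 6 h in SD liquid and on SD agar, with 3 arrays in each group. They were Kss1K42R (a form of the filamentous-growth kinase Kss1 with a changed active site), tec1, msb2 and flo11 knockouts (the transcription factor of that pathway, its membrane mucin and the wall adhesin), and cells with the plasmids pRS313, pRS313-STE11-4 (a hyperactive form of the upstream kinase, called STE11-4 here), pRS316 or pRS316-MSB2* (a form of MSB2 whose change the labels do not give, called MSB2* here). Cells labelled PGAL1-FLO11, with the adhesin gene behind a galactose-inducible promoter, were grown in both SD and SG. The labels do not spell out SD, SLAD or SG and do not give the host genotype of the plasmid strains. Nor do they say whether the 3 arrays of a group come from separate cultures. The p-values therefore rest on array-to-array spread that may be technical. Titles of the 0 h liquid, pRS313 liquid and STE11-4 liquid arrays carry a letter b that the matching agar titles lack. The labels do not explain it. In those pairs substrate cannot be told apart from anything the letter marks. Titles of wild-type SD liquid at 6 h lack the letter too. In liquid the same limit holds for pRS313 and STE11-4 set beside wild-type, and for 6 h against 0 h.

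All values are log2 signals as deposited, so a difference of 1 is 2-fold. Array medians lay between 6.76 and 7.23 and the 99th percentile between 14.87 and 14.97, and an estimate of background from the probe sets of another species lay between 5.72 and 6.33. The labels were checked against the altered genes and markers. TEC1 in the tec1 knockout and MSB2 in the msb2 knockout were below background on every array, FLO11 in the flo11 knockout was at 6.77 ± 0.26 (SD, n = 3) on agar, and HIS3 and URA3 were high with pRS313 and pRS316. GAL1 was at 15.27 in SG and 7.73 in SD on agar. FLO11 in the arrays labelled PGAL1-FLO11 was at 14.50 on SD agar and 10.64 in SD liquid, near the wild-type levels of 14.81 and 10.41, while GAL1 was low (8.33 in SD liquid). FLO11 thus does not bear out that label in SD. The labels do not say whether the native promoter of FLO11 was replaced. In SG FLO11 was at 15.21 on agar and 15.19 in liquid, against 14.76 and 14.73 in wild-type, which does not settle the label there either. The counts of member calls are also given without those arrays. One gelatin array (A) stood furthest from its group, with a root mean square deviation over genes of 0.596, against 0.334 and 0.297 for gelatin B and C.

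**Figure D1:**
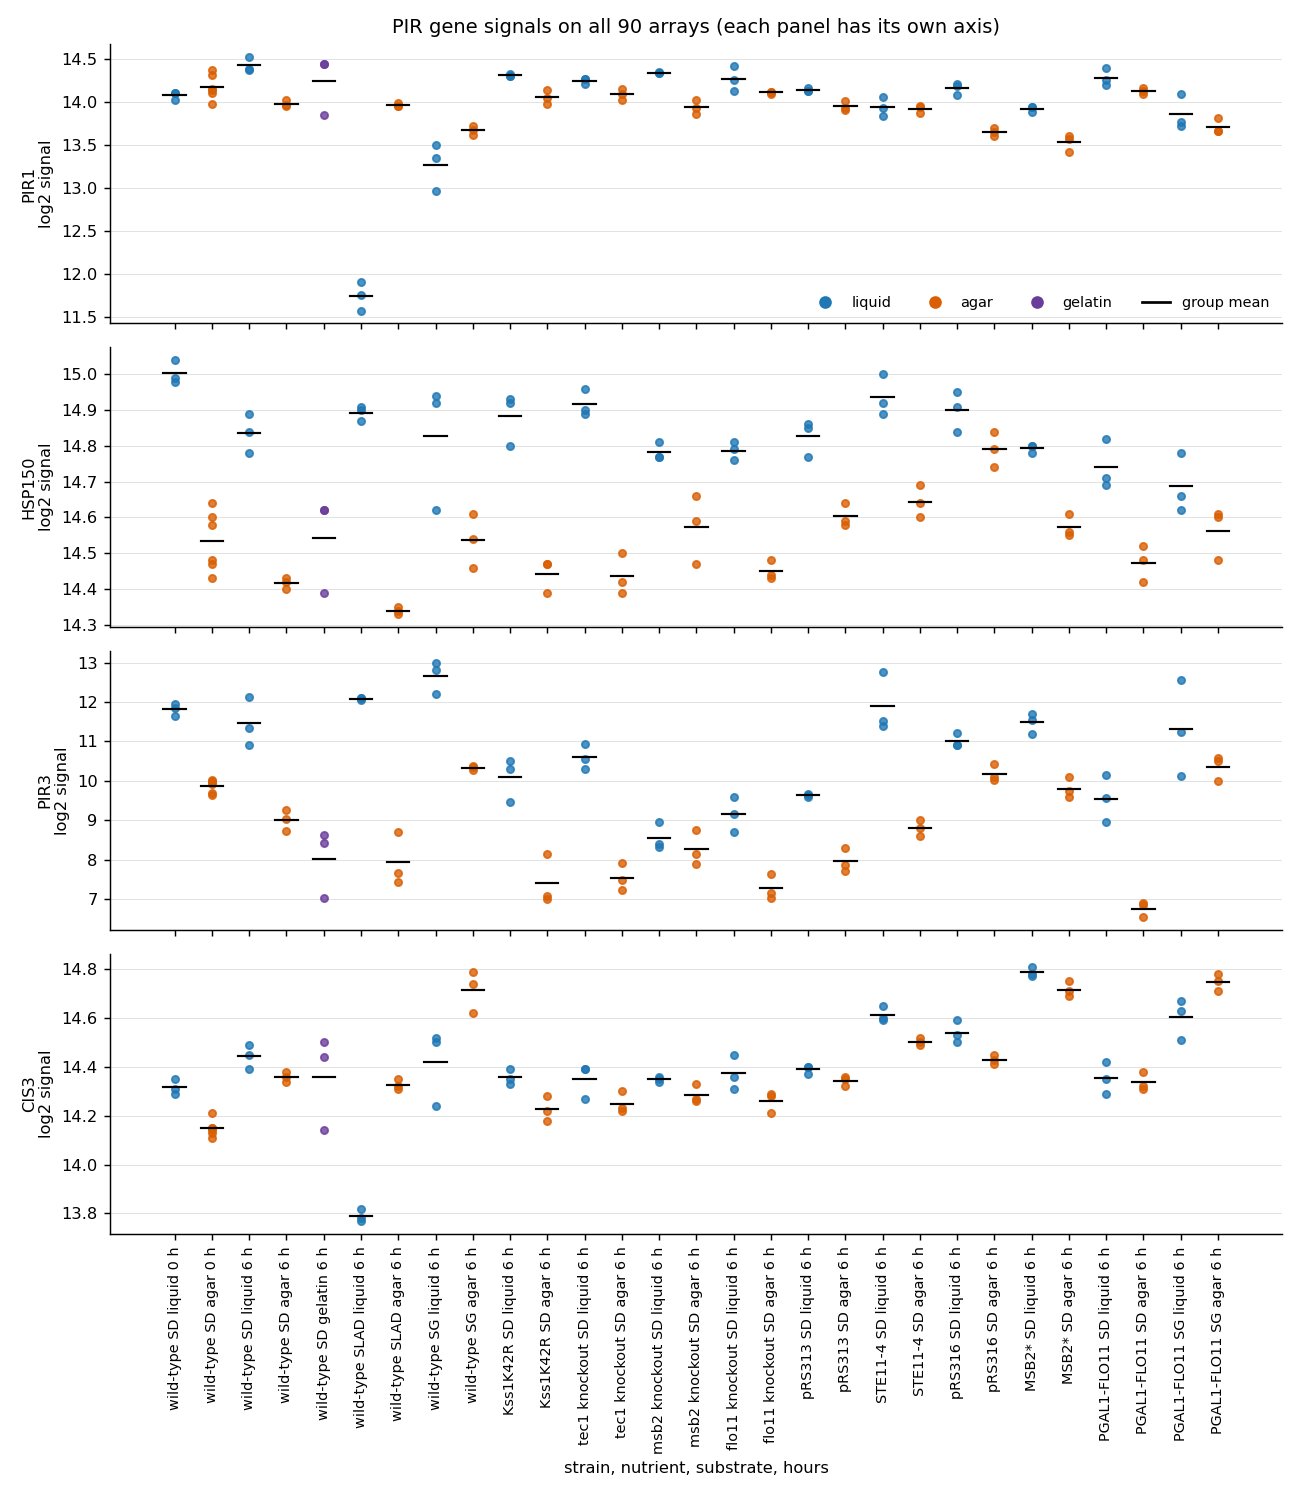
Log2 signal of PIR1, HSP150, PIR3 and CIS3 on each of the 90 arrays, by group (3 arrays each, 6 for wild-type SD agar at 0 h); points are arrays coloured by substrate, bars are group means, and each panel has its own axis. PIR3 ranges from 6.53 to 12.98, PIR1 is at 11.57 to 11.91 in wild-type SLAD liquid, and the group means of HSP150 and CIS3 span 0.66 and 0.99.

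The 4 genes differed widely in how far their RNA moved. PIR3 had group means from 6.75 (PGAL1-FLO11, SD agar) to 12.67 (wild-type, SG liquid), a range of 5.91, and 98.6% of the tested genes had a smaller range. Without the groups labelled PGAL1-FLO11 the lowest PIR3 mean was 7.27 and the range 5.39. PIR1 ranged over 2.69, from 11.74 in wild-type SLAD liquid to 14.43 in wild-type SD liquid, and 88.1% of genes had a smaller range. CIS3 ranged over 0.99, from 13.79 (wild-type SLAD liquid) to 14.79 (MSB2*, SD liquid). HSP150 ranged over 0.66, from 14.34 (wild-type SLAD agar) to 15.01 (wild-type SD liquid at 0 h). The median range over all genes was 1.28. No member was below background on any array. PIR3 came near it, at its lowest in the 6.7th percentile of its array. PGAL1-FLO11 SD agar C read 6.53 for PIR3, where background was 6.21. Whether low PIR3 values, and so its differences on agar, are compressed near the floor was not tested. HSP150 lay between the 94.8th and 98.7th percentile of its array and CIS3 between the 91st and 97.5th; whether their differences are compressed so near the top of the scale was not tested.

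Replicate spread differed as much as the range. The SD within groups, pooled over the 29 groups, was 0.47 for PIR3, larger than for 99.2% of genes, against 0.12 for PIR1, 0.07 for HSP150 and 0.06 for CIS3, and 0.16 for the median gene. Adjacent groups in the order of PIR3 levels were at most 0.58 apart, and all steps other than the highest and the lowest were smaller than that SD. The clear step in the order of PIR1 levels was the gap of 1.53 between wild-type SLAD liquid and the next lowest group, wild-type SG liquid. For CIS3 the largest gap, 0.36, set wild-type SLAD liquid below all other groups. The order of HSP150 levels had no gap above 0.08, but 14 of its 15 highest groups were liquid groups and the other was pRS316 on SD agar.

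PIR3 RNA was lower on agar than in liquid. In wild-type SD cells PIR3 stood at 10.90, 11.34 and 12.13 in liquid arrays A, B and C and at 8.72, 9.03 and 9.26 on agar. Every agar array was below every liquid array. The difference was -2.46 ± 0.37 (SE), with a 95% interval from -3.19 to -1.72, a 5.49-fold fall (limma over all arrays, adjusted p = 1.68e-07). It was the 12th largest fall of all tested genes. A gene is counted as called here when its Benjamini-Hochberg adjusted p over the 5449 genes was under 0.05 and its change was at least 2-fold. Of the 4 members PIR3 was the only one called in this comparison, in which 4.53% of all genes were called.

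Other nutrients showed the same direction for PIR3. In SLAD the liquid arrays read 12.06, 12.09 and 12.11 and the agar arrays 7.66, 8.70 and 7.43, a change of -4.16 ± 0.37 (SE), a 17.8-fold fall (adjusted p = 5.51e-16). In SG the liquid arrays read 12.82, 12.98 and 12.20 and the agar arrays 10.36, 10.38 and 10.27, a change of -2.33 ± 0.37, a 5.03-fold fall (adjusted p = 1.1e-07). In neither nutrient did the groups overlap. The agar effect in SLAD differed from that in SD by -1.70 ± 0.52 (SE; test of the difference, adjusted p = 0.00445). Between SG and SD the effect differed by 0.13, with an interval from -0.91 to 1.16 (adjusted p = 0.868). In SLAD, PIR1 and PIR3 were both called, in opposite directions, among 24% of all genes, and in SG PIR3 alone was called among 15.7%. For the difference of the agar effect the shares called were 17.5% for SLAD minus SD, where PIR1 and PIR3 were called, and 12.5% for SG minus SD, where no member was.

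**Figure D2:**
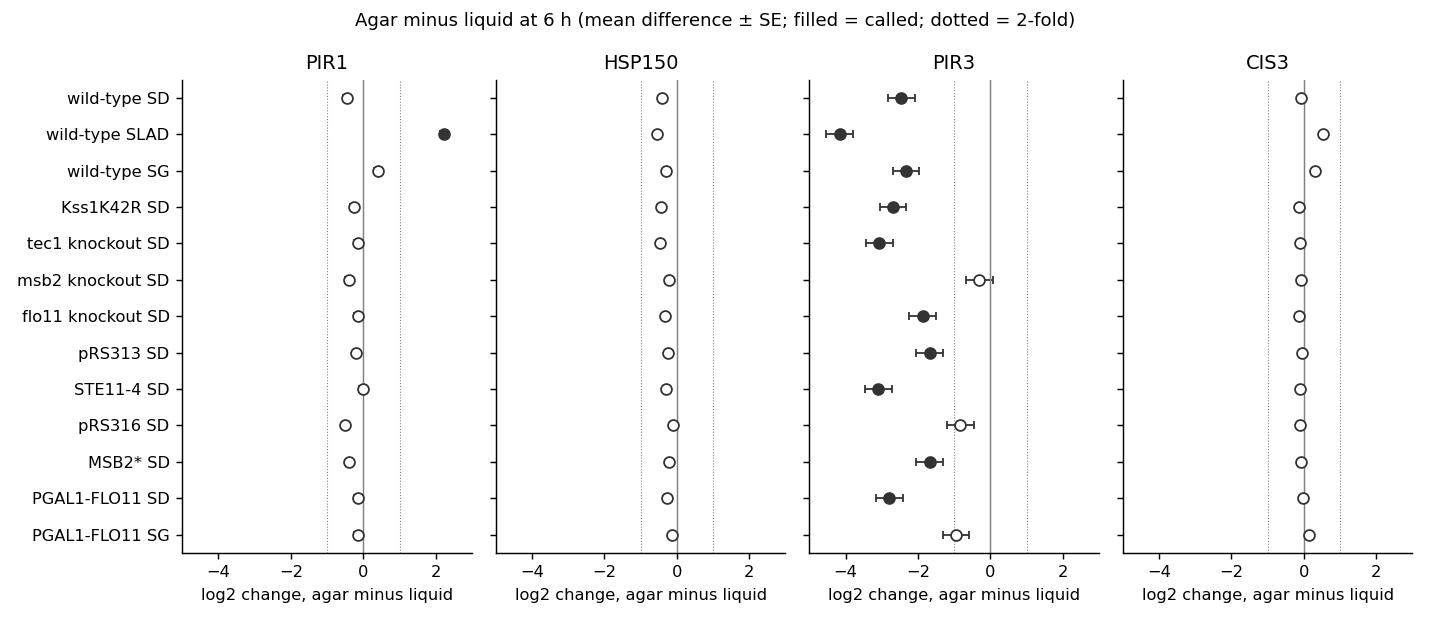
Log2 change of each member on agar relative to liquid at 6 h in the 13 strain and nutrient pairs; points are mean differences of 3 against 3 arrays, bars are SE, filled points were called, and dotted lines mark 2-fold. PIR3 is left of 0 in all 13 pairs and called in 10, HSP150 is left of 0 in all 13 without reaching 2-fold, and PIR1 is called higher in wild-type SLAD alone.

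Across all 13 pairs of agar and liquid groups PIR3 was lower on agar, with changes from -4.16 to -0.30 and a median of -2.33, and it was called in 10. In the altered strains with SD PIR3 changed by -2.69 in Kss1K42R (adjusted p = 1.78e-08), -3.07 in the tec1 knockout (3.76e-10), -1.87 in the flo11 knockout (5.8e-05) and -3.09 with STE11-4 (4.24e-10). It changed by -1.67 with pRS313 (0.000456), -1.68 with MSB2* (0.000459) and -2.79 in cells labelled PGAL1-FLO11 (5.69e-09). The pairs with no call were the msb2 knockout, pRS316 (-0.83, 0.0621) and PGAL1-FLO11 in SG (-0.95, 0.0541), the last of which ran from -0.32 (0.603) without PGAL1-FLO11 SG liquid C to a call at -1.55 (0.00166) without liquid B. The shares of all genes called in these pairs were 4.72% for Kss1K42R, 5.36% for tec1, 4.61% for msb2, 3.58% for flo11, 2.4% for pRS313, 4.4% for STE11-4, 4.88% for pRS316, 2.33% for MSB2*, 5.87% for PGAL1-FLO11 in SD and 3.03% for it in SG. Without the arrays labelled PGAL1-FLO11 the members made 10 calls in this family of comparisons, against 11 with them. None of the 11 was lost when any 1 array was left out.

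The msb2 knockout differed from wild-type in the size of the agar effect on PIR3. PIR3 read 8.31, 8.40 and 8.95 in liquid and 8.15, 8.74 and 7.88 on agar, and the groups overlapped. The change was -0.30, with an interval from -1.03 to 0.44 (adjusted p = 0.538). The agar effect was 2.16 ± 0.52 (SE) less negative than in wild-type (test of the difference, adjusted p = 0.00138), where PIR3 alone among the members was called and 5.43% of genes were. The comparison depends on the control. The controls themselves differed in FLO11 in liquid, at 12.71 with pRS316 and 10.41 in wild-type. In SD liquid URA3 was at 13.38 with pRS316, 4.56 in the msb2 knockout, 4.45 in the flo11 knockout and 4.61 in wild-type. In that plasmid marker the knockouts were like wild-type and unlike pRS316 cells. Against pRS316 cells, whose own PIR3 change on agar was -0.83 (adjusted p = 0.0621), the difference of the msb2 knockout was 0.53 (adjusted p = 0.617).

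For the other strains the agar effect on PIR3 was not separated from that of the control. The difference was -0.24 for Kss1K42R, with an interval from -1.27 to 0.80, -0.61 for the tec1 knockout (-1.65 to 0.43) and 0.59 for the flo11 knockout (-0.45 to 1.63). With pRS316 as the control the flo11 difference turned to -1.04 (adjusted p = 0.133). It was -1.42 for STE11-4 against pRS313 (adjusted p = 0.113), which became a call at -1.68 (0.0479) without STE11-4 liquid A, and -0.85 for MSB2* against pRS316 (0.498). It was -0.33 for PGAL1-FLO11 in SD (0.718). No member was called in these 6 tests, where 1.3%, 1.96%, 1.89%, 1.71%, 0.716% and 2.11% of all genes were called in the order given. For PGAL1-FLO11 in SG the difference was 1.38 (adjusted p = 0.0203), called among 18.3% of genes, and without the arrays labelled PGAL1-FLO11 the members made 3 calls in these tests in place of 4. Its liquid arrays read 11.25, 10.11 and 12.57 and its agar arrays 10.51, 9.99 and 10.58, so the call rested on a group with an SD of 1.23. It was lost without PGAL1-FLO11 SG liquid B (0.79, adjusted p = 0.19) or wild-type SG liquid B (1.23, 0.056), and in a fit on these arrays alone (0.108).

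On gelatin, another solid substrate, PIR3 was also low. The gelatin arrays A, B and C read 7.02, 8.42 and 8.62, all below the liquid arrays. The difference from liquid was -3.44 ± 0.37 (SE), a 10.8-fold fall (adjusted p = 2.54e-11), the 3rd largest fall of all genes. It was -2.94 without gelatin A. PIR3 was the only member called among 3.89% of genes. Gelatin and agar were compared with the same liquid arrays. Set directly against gelatin, agar read 0.98 higher for PIR3 (adjusted p = 0.0655). That was 0.48 (0.274) without gelatin A and 1.28 (0.0483) without gelatin C. No member was called between agar and gelatin, where 0.881% of genes were.

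The difference was present at 0 h. PIR3 read 11.65, 11.96 and 11.84 at the start in liquid, and between 9.65 and 10.02, with a median of 9.94, in the 6 agar arrays of 0 h. The groups did not overlap and differed by -1.95 ± 0.32 (SE; adjusted p = 4.99e-07). The label gives growth as 0 h and does not say how long those cells had been on agar. Deposited values of the 6 agar arrays of 0 h carry fewer decimals than those of the other arrays. Whether they were processed separately is not known, and comparisons with them cannot be told apart from that. Of the 0 h groups only the liquid one carries the unexplained letter b in its titles. Substrate cannot be told apart here from anything that letter marks. Nor can time in liquid, since titles of the 6 h liquid arrays lack the letter. From 0 h to 6 h PIR3 was lower by 0.87 on agar (adjusted p = 0.0399), short of 2-fold, and lower by 0.36 in liquid (0.415). PIR3 was the only member called at 0 h, among 6.96% of genes, and no member was called over time on agar (1.74% of genes) or in liquid (6.37%).

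**Figure D3:**
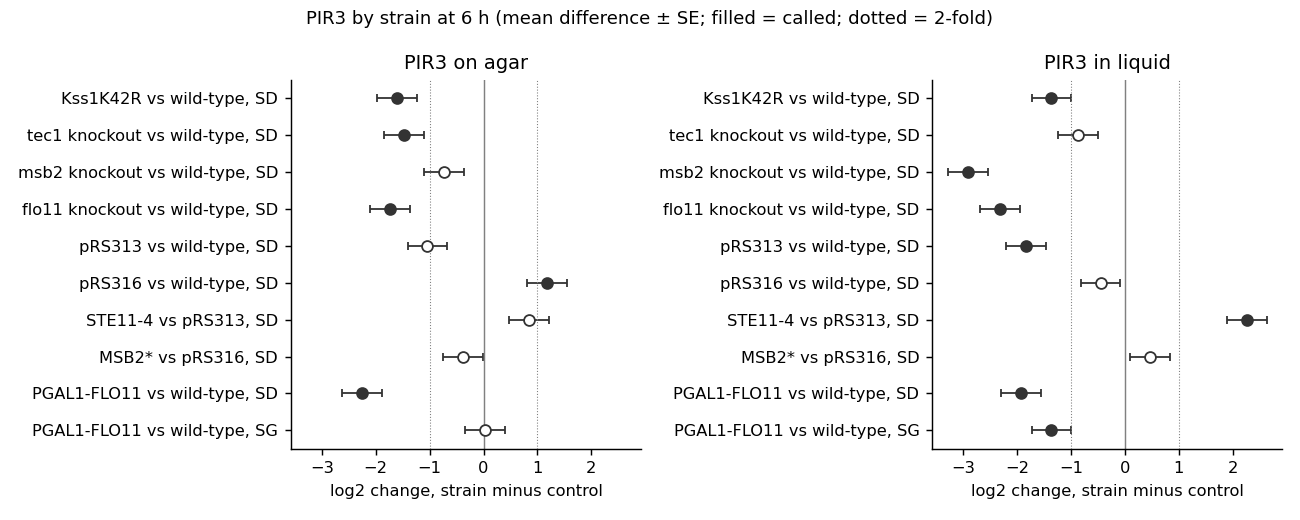
Log2 change of PIR3 in each altered strain relative to its control on agar and in liquid at 6 h; points are mean differences of 3 against 3 arrays, bars are SE, filled points were called, and dotted lines mark 2-fold. In SD liquid the msb2 knockout is lowest at -2.91 and STE11-4 against pRS313 is highest at 2.26.

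Between strains in liquid PIR3 was the only member called. In SD liquid PIR3 read 8.31, 8.40 and 8.95 in the msb2 knockout and 9.15, 9.60 and 8.69 in the flo11 knockout, all below the lowest wild-type array at 10.90. The changes were -2.91 ± 0.37 (SE; 7.49-fold, adjusted p = 2.48e-08) and -2.32 ± 0.37 (4.98-fold, 2.86e-06). Against pRS316 in place of wild-type they were -2.45 (4.02e-07) and -1.87 (0.000148), both called. Kss1K42R cells, at 9.46, 10.31 and 10.51, differed from wild-type by -1.36 (adjusted p = 0.00484), a call lost without wild-type liquid C (-1.03, adjusted p = 0.08) or without Kss1K42R liquid A (-1.05, 0.0743). The tec1 knockout, at 10.31, 10.94 and 10.56, differed by -0.86 (adjusted p = 0.0761), which ran from -0.52 (0.411) without wild-type liquid C to a call at -1.14 (0.0349) without wild-type liquid A.

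PIR3 was higher with STE11-4 in liquid than in its own plasmid control. PIR3 read 9.59, 9.66 and 9.64 with pRS313 and 11.38, 11.52 and 12.77 with STE11-4, a rise of 2.26 ± 0.37 (SE) or 4.8-fold (adjusted p = 2.75e-06). The pRS313 cells themselves differed from wild-type by -1.83 (adjusted p = 5.78e-05), and the STE11-4 arrays overlapped those of wild-type. Titles of the pRS313 and STE11-4 liquid arrays carry the unexplained letter b, and those of wild-type SD liquid do not. Against wild-type, strain cannot be told apart there from anything that letter marks. With pRS316 the arrays read 10.90, 11.22 and 10.91 and overlapped wild-type, and MSB2* differed from pRS316 by 0.47, with an interval from -0.26 to 1.21 (adjusted p = 0.383). Cells labelled PGAL1-FLO11 differed from wild-type by -1.92 in SD liquid (8.31e-05) and by -1.36 in SG liquid (0.000971). The SD call was lost with the replicate letter as a block (adjusted p = 0.0888), and the SG call in that fit (0.149), in the fit on its own arrays (0.0892) and without PGAL1-FLO11 SG liquid B (-0.76, 0.0742).

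PIR3 made all 7 calls of the members between strains in liquid, and 5 without the arrays labelled PGAL1-FLO11. The shares of genes called were 1.34% for Kss1K42R, 1.5% for tec1, 1.52% for msb2, 1.67% for flo11, 3.05% for pRS313, 4% for pRS316, 2.81% for STE11-4, 2.68% for MSB2*, 1.17% for PGAL1-FLO11 in SD and 17.7% for it in SG. The strains in SD other than STE11-4 and MSB2* were compared with the same wild-type SD arrays, so these values are not independent. The median of all genes was itself 0.11 to 0.14 above wild-type in SD liquid in the pRS316, msb2, pRS313 and flo11 groups, and PIR3 lay below it in each.

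On agar PIR3 was called lower in 4 strain comparisons and higher in 1. Wild-type SD agar read 8.72, 9.03 and 9.26. Kss1K42R read 7.07, 7.0 and 8.14, a change of -1.60 (adjusted p = 0.00265). The tec1 knockout read 7.90, 7.48 and 7.23, a change of -1.47 (0.00553), which was lost without its own array C (-1.31, 0.0569). The flo11 knockout read 7.16, 7.02 and 7.64, a change of -1.73 (0.00362), lost without wild-type agar C (-1.60, 0.0502). All arrays of these 3 strains were below all wild-type agar arrays. Cells labelled PGAL1-FLO11 on SD agar, at 6.89, 6.85 and 6.53, gave the lowest PIR3 of any group, differing from wild-type by -2.25 (2.45e-05).

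With pRS316 PIR3 was higher on agar, at 10.10, 10.02 and 10.43, a rise of 1.18 (adjusted p = 0.0104) that was lost without wild-type agar A (1.04, 0.0599). The msb2 knockout differed from wild-type by -0.74 (0.115), and from pRS316 by -1.92 (0.000105). The pRS313 cells differed by -1.04 (0.0628). That missed the threshold in the fit over all arrays and passed it on the arrays of the 2 groups alone (0.0107), with the replicate block (0.0471) and without gelatin A, STE11-4 liquid C, or PGAL1-FLO11 SG liquid B or C (0.0333 to 0.0484), which are arrays of other groups. STE11-4 differed from pRS313 on agar by 0.84 (0.265), MSB2* from pRS316 by -0.38 (0.621) and PGAL1-FLO11 from wild-type on SG agar by 0.03 (0.996). PIR3 made all 5 calls of the members on agar. Without the arrays labelled PGAL1-FLO11 there were also 5, since pRS313 then passed (0.0316). The shares of genes called were 0.551% for Kss1K42R, 0.661% for tec1, 2.99% for msb2, 0.349% for flo11, 1.38% for pRS313, 4.33% for pRS316, 0.789% for STE11-4, 1.67% for MSB2*, 0.642% for PGAL1-FLO11 in SD and 0.385% for it in SG.

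HSP150 RNA was lower on agar by a small and regular amount. In wild-type SD it read 14.78, 14.84 and 14.89 in liquid and 14.43, 14.40 and 14.42 on agar. In SLAD it read 14.87, 14.90 and 14.91 in liquid and 14.33, 14.35 and 14.34 on agar. The groups did not overlap in either nutrient, and the differences were -0.42 ± 0.06 (SE, adjusted p = 1.61e-08) and -0.55 ± 0.06 (2.18e-13). All 13 pairs had a negative change, from -0.55 to -0.11 with a median of -0.29, and 11 passed adjusted p under 0.05. None reached 2-fold. The pairs that did not pass were pRS316 (-0.11, adjusted p = 0.125) and PGAL1-FLO11 in SG (-0.12, 0.127), which were also pairs in which PIR3 was not called. Passing on p alone was common in these data: 51.9% of all genes did so in wild-type SD.

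HSP150 was also lower on gelatin than in liquid, by 0.29 (adjusted p = 4.46e-05). At 0 h it read 14.98, 15.04 and 14.99 in liquid. The 6 agar arrays read 14.43, 14.48 and 14.47 (A to C) and 14.58, 14.64 and 14.60 (D to F). Those sets did not overlap, so the agar arrays were not evenly spread replicates. Over all 6 the difference from liquid was -0.47 ± 0.05 (SE, adjusted p = 1.74e-12), and both sets lay below every liquid array. The msb2 knockout showed a smaller agar effect on HSP150 than wild-type, by 0.21 (test of the difference, adjusted p = 0.0461), and by -0.10 in the other direction against pRS316 (0.505). Among strains on agar, pRS316 cells read 0.38 above wild-type (3.31e-07), pRS313 cells 0.18 (0.0282) and the msb2 knockout 0.16 (0.0294), and MSB2* differed from pRS316 by -0.22 (0.00582). Against pRS316 the msb2 knockout turned to -0.22 (0.00519), and the flo11 knockout went from 0.03 (0.954) to -0.34 (2.04e-06). Between nutrients HSP150 differed by 0.12 or less in each of the 4 comparisons, and no comparison passed.

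**Figure D4:**
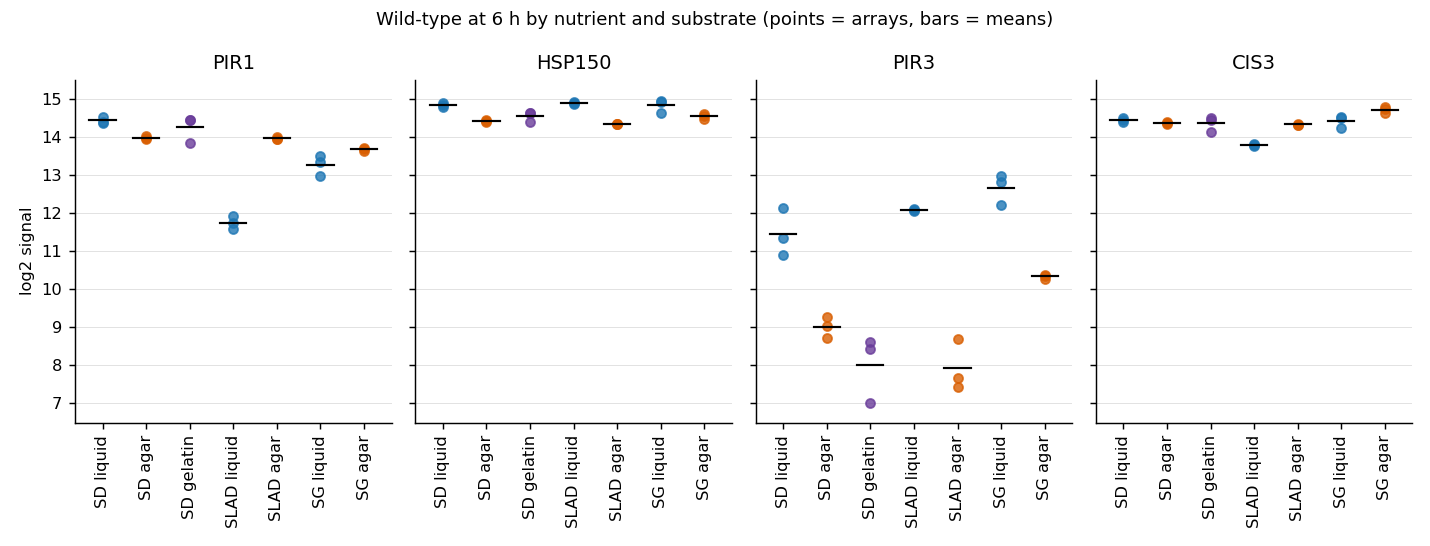
Log2 signal of each member in wild-type cells at 6 h in liquid and on agar with SD, SLAD and SG, and on gelatin with SD; points are arrays, bars are group means, 3 arrays each. PIR1 is at 11.57 to 11.91 in SLAD liquid and 13.95 to 13.99 on SLAD agar, while PIR3 runs the other way, from 12.06 to 12.11 in SLAD liquid to 7.43 to 8.70 on SLAD agar.

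PIR1 RNA differed between nutrients in liquid. In wild-type liquid PIR1 read 14.37, 14.39 and 14.53 with SD, 13.35, 13.50 and 12.97 with SG, and 11.91, 11.75 and 11.57 with SLAD. The 3 sets did not overlap. Relative to SD, PIR1 changed by -2.69 ± 0.10 (SE) in SLAD liquid, a 6.44-fold fall (adjusted p = 5.12e-35), and by -1.16 ± 0.10 in SG liquid, a 2.23-fold fall (4.7e-17). On agar the SLAD arrays, at 13.95, 13.99 and 13.95, overlapped the SD arrays at 13.97, 13.95 and 14.02. That difference was -0.01, with an interval from -0.21 to 0.18.

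The agar effect on PIR1 differed between nutrients. PIR1 rose on SLAD agar relative to SLAD liquid by 2.22 ± 0.10 (SE), 4.67-fold (adjusted p = 1.35e-30), was 0.40 higher on SG agar (0.000253) and was 0.45 lower on SD agar (0.000113). The agar effect in SLAD exceeded that in SD by 2.67 ± 0.14 (SE; adjusted p = 2.9e-26) and that in SG exceeded it by 0.85 (4.17e-07). In the altered strains with SD the change of PIR1 on agar lay between -0.50 and -0.02, none 2-fold. In PGAL1-FLO11 with SG the agar effect differed from that in wild-type by -0.56 (0.000426), and its liquid group read 0.59 above wild-type (2.4e-07).

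CIS3 was lowest in the same group as PIR1, wild-type SLAD liquid. It read 14.39, 14.45 and 14.49 in SD liquid and 13.77, 13.82 and 13.78 in SLAD liquid, without overlap. The difference was -0.65 ± 0.05 (SE, adjusted p = 4.67e-17), short of 2-fold. On SLAD agar it read 14.31, 14.35 and 14.32, so the agar effect was 0.53 in SLAD (9.05e-14) against -0.08 in SD (0.185), a difference of 0.62 ± 0.08 (SE, 2.37e-10). In SG it was 0.30 higher on agar (2.45e-06), 0.38 above the effect in SD (2.85e-05).

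CIS3 had its highest group mean in MSB2* in SD liquid, at 14.79. MSB2* on SD agar had a mean of 14.72, beside 14.75 for PGAL1-FLO11 and 14.72 for wild-type on SG agar. In SD liquid CIS3 read 14.50, 14.59 and 14.53 with pRS316 and 14.81, 14.78 and 14.77 with MSB2*, a difference of 0.25 (adjusted p = 0.000353). On agar MSB2* was 0.29 above pRS316 (5.56e-05). With STE11-4 CIS3 was 0.22 above pRS313 in liquid (0.00148) and 0.16 above it on agar (0.0802). At 0 h it was 0.17 lower on agar than in liquid (0.00164), and from 0 h to 6 h it was 0.21 higher on agar (0.000369). None of these was 2-fold.

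For the nutrient comparisons as a whole the members made 4 calls. In liquid they were PIR1 in SLAD, among 16.7% of genes called, and PIR1 and PIR3 in SG, among 29.5%. On agar PIR3 was called in SG, among 12.3%, and no member in SLAD, among 0.44%. PIR3 was higher in SG than in SD by 1.33 on agar (adjusted p = 0.00138) and by 1.21 in liquid (0.00251), the latter under 2-fold without wild-type SD liquid A (0.93, 0.0353). In SLAD relative to SD it differed by 0.63 in liquid (0.132) and by -1.07 on agar (0.13), the last of which became a call without gelatin A (0.0464), an array outside that comparison. CIS3 was 0.36 higher on SG agar than on SD agar (4.69e-08), and PIR1 0.30 lower (0.00518).

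PIR5, next to HSP150, is PIR-like by sequence annotation. Its signal lay between 7.07 and 8.36 on all arrays, with group means over a range of 0.91. That is among the dim genes, at percentiles 6.72 to 15.1 of its array, though never below background. It was lower on agar in all 13 pairs, by 0.26 to 0.84, and 10 passed on p without reaching 2-fold. In these pairs between 17.8% (MSB2*) and 72.9% (wild-type SLAD) of all genes passed on adjusted p alone, in either direction. After quantile normalization the changes ran from -0.89 to -0.06 and 5 passed. In wild-type SD the change was -0.36 (adjusted p = 0.03).

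The genes that mature Pir proteins showed no call between agar and liquid in wild-type SD, and 1 call after centring on array medians. The list held KEX2 and PMT1 to PMT6, 7 genes in all, and 6 were lower on adjusted p alone, which 51.9% of all genes passed in either direction, with a median change of -0.39 against 0.09 for all genes. PMT3 changed most, by -0.94 (adjusted p = 7.6e-05), and KEX2 by 0.12 (0.328). In SLAD liquid relative to SD liquid 1 of the 7 was called, PMT1 at -1.46 (3.19e-19), beside 7.23% of all genes that fell, and the list's median was -0.69 against 0.03. After quantile normalization or centring on array medians 3 of the 7 were called. In SG liquid relative to SD liquid, where 12.3% of all genes fell, 3 of the 7 fell, PMT4 (-1.52), PMT6 (-1.17) and KEX2 (-1.14), with a list median of -0.81 against 0.09.

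Of 11 measured genes known as targets of Slt2 and Rlm1, 5 fell on agar in wild-type SD and none rose, beside 2.81% and 1.73% of all genes, with a median of -0.58 against 0.09. The changes were -3.01 for the GPI protease gene YPS3, -2.39 for the wall protein gene CWP1, -1.62 for the wall protein gene PST1 and -1.54 for the chitin transglycosylase gene CRH1. On gelatin 5 of the 11 fell as well, beside 2.48% of all genes, with a median of -0.88 against -0.01, including YPS3 (-3.76), the membrane protein gene PRM5 (-1.72) and KDX1, whose product is a relative of Slt2 (-1.53). In SLAD 5 fell and PRM5 rose by 1.91, beside 12.8% and 11.2% of all genes, with a median of -0.70 against 0.07. In SG, where PIR3 fell too, 2 rose, PRM5 by 2.18 and the chitin synthase gene CHS3 by 1.07, and none fell, beside 7.95% and 7.78% of all genes, with a median of 0.51 against 0.04. With STE11-4 in liquid 3 rose, PRM5 by 2.58, YPS3 by 1.60 and CWP1 by 1.08, beside 2.57% of all genes, with a median of 0.38 against -0.05.

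A list of 14 genes of cell separation and the exit from mitosis was counted in the same comparisons. In SLAD liquid relative to SD liquid, where PIR1 fell, 10 of 14 fell, beside 7.23% of all genes, with a median of -1.42 against 0.03. All 14 were lower on adjusted p alone, which 63.4% of all genes passed in either direction. The changes were -1.96 for the cell separation gene EGT2, -1.86 for PRY3, -1.75 for the daughter-cell gene DSE2 and -1.66 for the replication licensing gene CDC6. SWI5, which encodes a transcription factor active at the exit from mitosis, changed by -2.47. On SLAD agar relative to SLAD liquid 4 of the 14 rose, CDC6 by 1.61, DSE3 by 1.54, AMN1 by 1.13 and the cyclin gene PCL2 by 1.02, beside 11.2% of all genes, with a median of 0.64 against 0.07, and SWI5 rose by 2.66. On SD agar 4 of the 14 fell, among them DSE2 (-1.19) and DSE4 (-1.15), beside 2.81% of all genes, with a median of -0.80 against 0.09. Whether these lists and the PIR genes share a cause was not tested.

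Other classes of wall gene were counted in the same comparisons. Among 11 GPI-type mannoproteins on SD agar FLO11 rose by 4.40 and HPF1 changed by -2.66, and no other was called, beside 4.53% of all genes called, with a median of -0.45 against 0.09. On SLAD agar FLO11 rose by 4.87 and 6 fell, including SPI1 (-4.86) and DAN1 (-3.28), beside 12.8% of all genes that fell, with a median of -1.26 against 0.07. In SLAD liquid relative to SD liquid, where PIR1 fell, 4 of the 11 rose and none fell, beside 9.47% and 7.23% of all genes, TIP1 by 3.28, DAN1 by 3.07, SPI1 by 2.62 and TIR3 by 1.30. Of 12 SUN and glucan-modifying genes none was called on SD agar (8 were lower on adjusted p alone in limma, against 51.9% of all genes that passed in either direction). In SLAD liquid relative to SD liquid NCA3 rose by 5.19, the glucan synthase gene GSC2 rose by 2.03, SIM1 changed by -1.37 and TOS1 by -1.03. Of all genes 9.47% rose and 7.23% fell there. Of 10 measured regulators none was called on SD agar (4 passed on adjusted p alone, against 51.9% of all genes), with a median of -0.01 against 0.09.

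**Figure D5:**
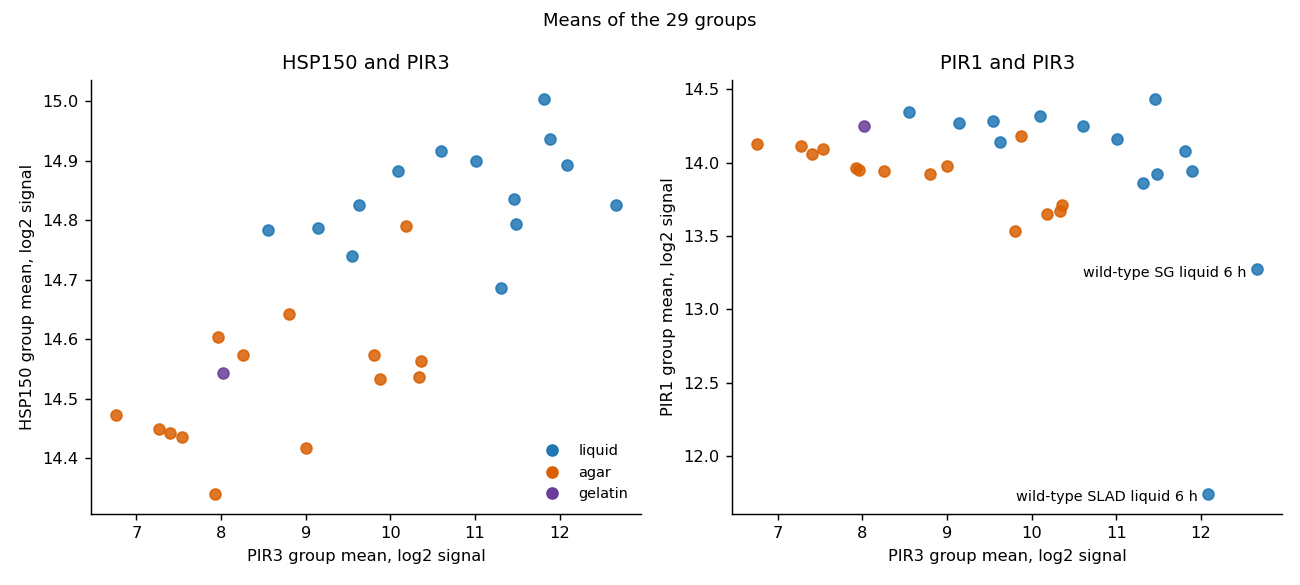
Group means of HSP150 (left) and PIR1 (right) against those of PIR3, log2 signal, with each of the 29 groups a point coloured by substrate. HSP150 is higher in groups with more PIR3 (Pearson correlation 0.76), and wild-type SLAD liquid and wild-type SG liquid are the lowest PIR1 points, at 11.74 and 13.27.

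Over the 29 group means HSP150 and PIR3 had a Pearson correlation of 0.76, and 0.73 without the 2 groups farthest from the median of HSP150. Over all groups the other pairs were weaker, and the sign for PIR1 and CIS3 turned on 2 groups. PIR1 and CIS3 had 0.29 over all groups and -0.59 without wild-type SLAD liquid and wild-type SG liquid. PIR1 and PIR3 had -0.39, and -0.11 without the same groups. PIR1 and HSP150 had -0.11, HSP150 and CIS3 0.05, and PIR3 and CIS3 0.25. Deviations of the 90 arrays from their group means correlated positively for all 6 pairs, from 0.34 to 0.72. These values describe groups that share strains, media and control arrays.

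The genes whose group means were most like each member's were sought among 4823 genes with a standard name and a mean above background. For PIR3 they were the glucokinase gene GLK1 (0.90), SDS24 (0.90), the stationary-phase wall protein gene SPI1 (0.89), PIN3 (0.88) and the vacuolar protease gene PEP4 (0.88), and all 5 stayed at 0.86 or above without the 2 outermost groups. For HSP150 they were the wall protein gene PST1 (0.89), the glucanosyltransferase gene BGL2 (0.88), the amino acid permease gene BAP2 (0.87), the polyamine transporter gene TPO2 (0.87) and the glyceraldehyde-phosphate dehydrogenase gene TDH1 (0.86), at 0.83 to 0.89 without those groups. For CIS3 they were SIM1 (0.93), the cyclin gene CLN1 (0.92), the wall sensor gene WSC2 (0.90), GIC2 (0.90) and the kinase gene HSL1 (0.89), at 0.82 to 0.88. Within groups the deviations of SIM1, WSC2 and GIC2 correlated with those of CIS3 at 0.71, 0.79 and 0.44. Those of CLN1 and HSL1 did so at -0.04 and -0.5. For PIR1 they were genes of purine and one-carbon metabolism, ADE3 (0.96), SAM2 (0.95), ADE12 (0.94), ADE17 (0.94) and SHM2 (0.94). These 5 dropped to between 0.65 and 0.83 without wild-type SLAD liquid and wild-type SG liquid. In SLAD liquid relative to SD liquid ADE17 changed by -2.33, SHM2 by -1.86 and ADE12 by -1.66, beside -2.69 for PIR1. The genes were picked by likeness to PIR1 over groups that include SLAD liquid, so falls there came with the choice. Within groups the deviations of ADE17 correlated with those of PIR1 at -0.15, and those of the others at 0.23 to 0.37.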

How the data were processed

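Total RNA was labelled by Affymetrix IVT labelling and read on 90 arrays. The values are log2 signals, deposited by the authors as 1 table and made with RMA, per the submitters' processing notes; no source used here gives its version or a genome build. Of 10928 probe sets, 7244 named 1 gene in the platform annotation, 1 several and 3683 none, and 5498 matched the S. cerevisiae gene table, giving 5449 genes (for 47 genes the brightest probe set was used). No column belonged to other samples (0). On each array, background was set at the level that 95% of the probe sets of another species did not reach.

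A mean per group was fitted over all 90 arrays with limma 3.58.1 (lmFit, eBayes) in R 4.3.3, with 52 contrasts, 2-sided tests and Benjamini-Hochberg adjustment over all genes. A call needs adjusted p under 0.05 and at least 2-fold. An exact permutation test of 3 against 3 arrays cannot go below 0.1 and was not used. The analysis was tested on simulated data. Replicate letters did not pair the samples: in 2 of 42 comparisons did every same-letter pair correlate above 0.1. The rule for named genes gave the 4 members, the 5 genes most correlated with each over group means, up to 4 genes of a list with the largest changes, and 6 genes as label checks; KEX2 was also given in wild-type SD for its role. The members and lists were chosen with earlier results of these data known. Alternatives were quantile normalization, median centring, leaving out the dimmest 25% of genes, no fold threshold, the mean of probe sets, own arrays only, the replicate block, only arrays A to C or D to F of 0 h agar, pRS316 as control and leaving out each array; leaving out the PGAL1-FLO11 arrays was chosen after seeing the data. NCW2 was not measured, and 1 regulator is not reported here. No sequences were used.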

Additional observations from a re-analysis of the deposited data

Results flagged for a closer look

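The agar effect of a member differed between groups, by a limma test of the difference itself, in 9 cases. For PIR3 it was 2.16 less negative in the msb2 knockout than in wild-type SD (adjusted p = 0.00138), 1.38 less negative in PGAL1-FLO11 than in wild-type SG (0.0203) and -1.70 more negative in wild-type SLAD than in SD (0.00445). For PIR1 it was 2.67 higher in SLAD than in SD (2.9e-26), 0.85 higher in SG than in SD (4.17e-07) and differed by -0.56 between PGAL1-FLO11 and wild-type in SG (0.000426). For CIS3 it was 0.62 higher in SLAD (2.37e-10) and 0.38 higher in SG (2.85e-05) than in SD. For HSP150 it was 0.21 less negative in the msb2 knockout than in wild-type (0.0461). In these tests many genes passed on adjusted p alone. The shares were 23.1% for the msb2 knockout, 54% for PGAL1-FLO11 in SG, 51.3% for SLAD minus SD and 47.7% for SG minus SD.

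The 2 msb2 knockout differences were 0.53 for PIR3 and -0.10 for HSP150 with pRS316 as the control, and neither then passed. No array of the 6 of wild-type SD agar at 0 h stood apart for any member by Dixon's criterion, which chance meets in about 1 of 20 groups. That criterion looks only at the outermost array and cannot show a split into sets. For HSP150 arrays A to C (14.43 to 14.48) all lay below D to F (14.58 to 14.64).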

How the results depend on the processing

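All 208 results of members held their call under quantile normalization, centring, leaving out the dimmest 25% of genes and the mean of probe sets, and no called result changed sign under any alternative run. Of the results that passed on adjusted p alone in either fit, 5 changed sign, all with pRS316 as the control: on agar HSP150 went from 0.16 to -0.22 in the msb2 knockout and from 0.03 to -0.34 in the flo11 knockout and PIR1 from -0.04 to 0.29 in the msb2 knockout, and the difference of the agar effect on HSP150 went from 0.21 to -0.10 in the msb2 knockout and from 0.09 to -0.23 in the flo11 knockout. Without the fold threshold 50 more results passed on adjusted p alone, among them PIR1 (-0.45) and HSP150 (-0.42) on wild-type SD agar and HSP150 on gelatin (-0.29). Many genes did so. The share of all genes passing on adjusted p alone ran from 17.8% (MSB2*) to 72.9% (wild-type SLAD) for agar against liquid. Over all comparisons it ran from 1.05% (flo11 knockout on agar) to 78% (SG against SD in liquid). The calls of members then numbered 32 for agar against liquid, 2 for gelatin, 8 for time, 11 for strain on agar, 14 for strain in liquid, 7 for nutrient and 9 for differences of the agar effect, in place of 11, 1, 1, 5, 7, 4 and 4. With 1 array left out, in all 90 ways, those counts ran from 11 to 12, 1 to 2, 1 to 1, 4 to 6, 6 to 8, 3 to 5 and 3 to 5. Of 1512 results without 1 array of their own groups, 9 lost and 4 gained a call. For agar against liquid in wild-type SD the change ran from -2.74 to -2.12 for PIR3, -0.45 to -0.40 for HSP150, -0.48 to -0.40 for PIR1 and -0.11 to -0.06 for CIS3, and for gelatin from -3.74 to -2.94, -0.33 to -0.22, -0.28 to 0.02 and -0.15 to 0.03.

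A replicate block leaves the mean difference of matched groups as it is (-2.46 for PIR3 in wild-type SD) and can move only its p; with the block 3 of 208 calls changed, all of PIR3: pRS313 on agar was gained and PGAL1-FLO11 in SD and in SG liquid were lost. Counts over all genes moved by more than 1.5 times in a few comparisons. Gelatin against liquid called 212 genes, 88 on its own arrays and 9 with the replicate block, and agar against gelatin called 48 and 0 in both (limma; 46 and 45 at unadjusted p under 0.05 and 2-fold), but 131 without gelatin A. The msb2 knockout on agar called 163, 93 on its own arrays, 276 without its array A and 101 without C, and its difference of agar effect called 296, 450 without msb2 agar A and 193 without C. STE11-4 in liquid called 153, and 101 on its own arrays. Its difference of agar effect called 93, 29 with the block, 141 without STE11-4 liquid A and 60 without C. The flo11 knockout in liquid called 91 and 154 without its liquid B, and its difference 103, 198 and, without C, 55. PGAL1-FLO11 called 64 in SD liquid and 37 with the block, 35 on SD agar and 23 without wild-type agar C, and 21 on SG agar, 1 with the block and 12 without any 1 of 3 arrays. Its difference in SD called 115, 74 after quantile normalization and 73 without its SD liquid B, and that of tec1 107, and 67 after quantile normalization. The causes were not tested. The precision is limited by 3 arrays per group.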
